A study of Mus musculus with 6 samples.

Results

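The genes described here encode subunits of NF-kB, a family of dimeric transcription factors, and the inhibitors that NF-kB itself switches on. They were taken from the deposited array table by gene symbol, keeping probe set rows that the platform annotation assigns to 1 symbol. Of 10 listed genes, 8 were found among 14860 named genes, 3 of the 5 subunits and all 5 feedback inhibitors, and each had 1 row. Nfkb1 and Relb, the other two subunits, were not analysed here. Signals were measured on Affymetrix exon arrays, 1 per mouse, in spleen cells enriched for Sca-1 with magnetic beads. Of the mice, 3 had been given ABT-737, a small-molecule inhibitor of BCL-2, BCL-XL and BCL-W, at 75 mg/kg, 3 times a week, for 33 days, and 3 were controls, described in the series text as untreated. All 6 animals carried the NRASD12 and BCL-2 transgenes on an FVB/N background, described as AML (acute myeloid leukaemia) mice, so the controls shared the leukaemia model and differed from the other mice in treatment alone as far as the labels say. The sources used here do not give the promoters that drive the transgenes or the ages of the mice.

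In resting cells NF-kB dimers are held in the cytoplasm by IkB proteins. Signals from receptors for TNF, interleukin-1 or microbial products activate the IKK kinases, which mark IkB for destruction and release the dimers to the nucleus. Among the genes that NF-kB then transcribes are those of some of its own subunits, of IkB alpha and of the ubiquitin-editing protein A20. These transcripts are often used as readouts of the pathway. The comparison bears on the question, stated by the series title, of which survival and proliferation pathways differ after ABT-737.

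Several of these genes are known targets of NF-kB. The 250 bases before the annotated start sites were therefore searched for the kappaB consensus, the 10-base element bound by NF-kB. It was read as 3 guanines, 1 purine, any 2 bases, 2 pyrimidines and 2 cytosines, on both strands, with overlapping matches counted. RefSeq windows of assembly GRCm38.p6 were held for 7 of the 8 genes, all but Nfkbiz. Of these 7 genes, 6 had a match in at least 1 window, against 8.24% of 27018 genes and 7.25% of 32841 windows. Rela had none in its window. Those shown, 4 windows, their matches in capitals, and each is read 5′ to 3′ and ends just before the start site; they belong to the inhibitors Nfkbia and Tnfaip3 and the subunits Rel and Nfkb2. They lie at chr12:55492648-55492897 on the minus strand (Nfkbia), chr10:19015411-19015660 on the minus strand (Tnfaip3), chr11:23770970-23771219 on the minus strand (Rel) and chr19:46304487-46304736 on the plus strand (Nfkb2, the most upstream of 3 windows). 
Nfkbia: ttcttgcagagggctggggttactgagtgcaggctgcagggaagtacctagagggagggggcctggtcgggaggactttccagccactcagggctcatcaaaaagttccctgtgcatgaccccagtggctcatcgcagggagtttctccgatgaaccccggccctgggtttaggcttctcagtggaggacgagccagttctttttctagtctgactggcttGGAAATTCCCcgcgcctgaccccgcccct
Tnfaip3: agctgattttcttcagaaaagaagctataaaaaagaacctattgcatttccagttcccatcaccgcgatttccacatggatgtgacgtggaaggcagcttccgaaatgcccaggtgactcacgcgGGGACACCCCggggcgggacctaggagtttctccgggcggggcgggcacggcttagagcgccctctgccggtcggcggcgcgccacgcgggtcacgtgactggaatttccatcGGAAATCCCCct
Rel: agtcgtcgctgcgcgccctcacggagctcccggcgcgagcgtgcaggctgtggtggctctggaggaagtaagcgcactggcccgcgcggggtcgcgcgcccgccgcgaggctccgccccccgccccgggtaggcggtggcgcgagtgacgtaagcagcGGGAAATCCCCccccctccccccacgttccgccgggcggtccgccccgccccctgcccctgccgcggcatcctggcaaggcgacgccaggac
Nfkb2: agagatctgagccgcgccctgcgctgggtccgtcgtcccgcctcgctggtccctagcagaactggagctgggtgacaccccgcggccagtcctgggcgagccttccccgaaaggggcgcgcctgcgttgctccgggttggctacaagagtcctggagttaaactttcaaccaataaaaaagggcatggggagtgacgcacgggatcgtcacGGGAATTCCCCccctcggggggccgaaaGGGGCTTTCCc

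The match in Nfkbia, GGAAATTCCC, began 29 bases before the start site. Tnfaip3 held GGGACACCCC at 125 bases and GGAAATCCCC at 12 bases, and the other Tnfaip3 window held none. In Rel, GGGAAATCCC and GGAAATCCCC overlapped at 92 and 91 bases, and in Nfkb2 the overlapping GGGAATTCCC and GGAATTCCCC began at 39 and 38 bases, followed by GGGGCTTTCC at 11 bases. Of the genes not shown, Nfkbie held GGGGGATTCC at 106 bases and Tnip1 a run of 3 overlapping matches from 58 bases. These matches describe the reference sequence, and binding was not measured.

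The arrays had median log2 signals of 7.07 to 7.14 in the ABT-737 mice and 6.86 to 7.13 in the controls. On the first principal component of all genes, which took 44.1% of the variance, ABT-737 mice 2 and 3 scored 32.2 and 28.1, ABT-737 mouse 1 scored -7.42 and the controls -21.0 to -15.0. Control mouse 3 had low Y-linked signal (Kdm5d 4.77, against 8.05 or more in the other 5 mice, and Eif2s3y 4.23, against 9.87 or more). The controls were thus mixed in Y-linked signal while the ABT-737 mice were not, and the labels give no sex. Sca-1 itself was not analysed here. Of 9 progenitor markers, 7 had lower means in the ABT-737 mice and 2 had higher ones, while 44.7% of all genes had a difference above 0. At an unadjusted p under 0.05 by limma, 3 of the markers were lower and 0 higher, against 4.45% and 5.75% of all genes. Cd34, the most lowered of the 9, read 9.11, 9.63 and 8.89 in the ABT-737 mice, against 9.98, 9.47 and 10.25 in the controls. Its groups overlapped and its difference was -0.69 log2, against a median of -0.24 over the 9 markers, and Kit differed by 0.04. Over all mice, the B cell receptor genes Cd79a and Cd79b read 12.69 to 13.49 and 12.95 to 13.72. Cd34, Kit, Cd79a, Cd79b and the Y-linked genes were named outside the rule used for other genes. As the table holds no background signal, absence cannot be called for any gene. In these mixed cells, a change in the share of a cell type and a change in RNA per cell cannot be told apart.

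Nfkbiz was the 1 of 8 members whose groups did not overlap, a share near the 13.3% of all genes in either direction. It encodes IkB zeta, a nuclear IkB protein that is induced by NF-kB and helps to switch on secondary response genes such as that of interleukin-6. The other feedback inhibitors had higher means in the ABT-737 mice as well, with overlapping groups, while the means of 2 of the 3 measured subunits, Rel and Nfkb2, were lower. At the threshold of an adjusted p under 0.05 by limma, 0 of 8 members passed, as did 0 of 14860 genes (0%), the smallest adjusted p over all genes being 0.114. At an unadjusted p under 0.05 by limma, 1 of 8 members was higher and 0 were lower, against 5.75% of all genes higher and 4.45% lower. Over all genes those shares were 4.96% and 9.47% after quantile normalization, and 4.16% and 8.84% once arrays had been centred on their medians. The median member difference was 0.19 log2, against -0.02 over all genes, and 6 of 8 members had a difference above 0, against 44.7% of genes. Centring moved the median of all genes to -0.11 and that of the members to 0.10.

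**Figure D1:**
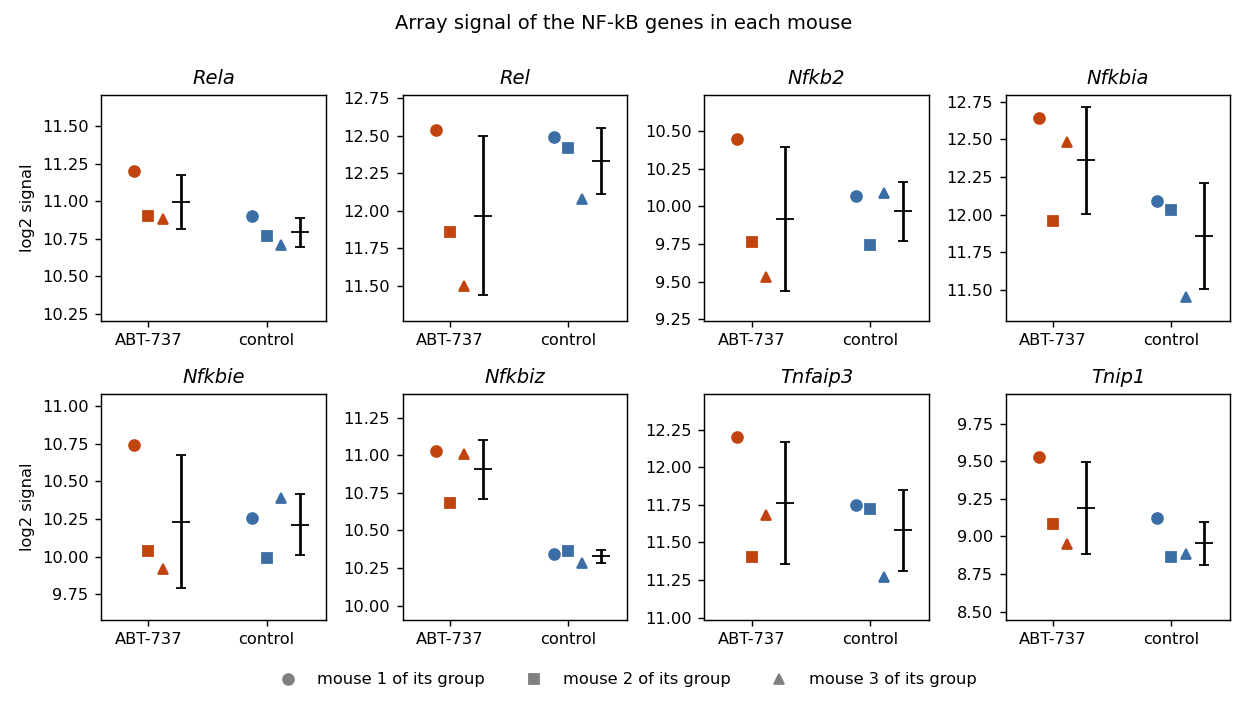
Log2 array signal (vertical axis, each panel spanning the same width of 1.5 log2 units) of the 8 measured genes in ABT-737 mice (left) and control mice (right). Symbols are single mice and black bars the mean ± SD (n = 3 each). In every panel ABT-737 mouse 1 is the highest point. For Nfkbiz alone the groups do not overlap, as they do not for 13.3% of all genes.

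Among the subunits, Rela encodes p65, the partner in the main activating dimer of the canonical pathway. It read 11.20, 10.90 and 10.88 in the ABT-737 mice, against 10.90, 10.77 and 10.71 in the controls. The lowest ABT-737 value lay just under the highest control. The difference was 0.20 log2 (SE 0.13, 95% interval -0.11 to 0.51, adjusted p = 0.678 by limma), and 0.10 without ABT-737 mouse 1.

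Rel encodes c-Rel, a subunit that is prominent in lymphocytes. Its signal was 12.54, 11.86 and 11.50 in the ABT-737 mice, against 12.49, 12.42 and 12.08 in the controls. ABT-737 mouse 1 thus lay above every control, and ABT-737 mice 2 and 3 below every control. The difference over all mice was -0.36 log2 (SE 0.26, 95% interval -0.98 to 0.26, adjusted p = 0.721 by limma), with an SD of 0.53 in the ABT-737 mice and 0.22 in the controls.

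Nfkb2 encodes p100, the precursor of the p52 subunit of the non-canonical pathway, which also acts as an IkB-like inhibitor until it is processed. It read 10.45, 9.76 and 9.53 in the ABT-737 mice, against 10.07, 9.74 and 10.09 in the controls. The ABT-737 mice spanned the whole range of the controls. The difference was -0.05 log2 (SE 0.24, 95% interval -0.62 to 0.52, adjusted p = 0.967 by limma), an interval too wide to show a small difference either way.

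Of the feedback inhibitors, Nfkbiz read 11.03, 10.68 and 11.01 in the ABT-737 mice, against 10.34, 10.36 and 10.28 in the controls. Every ABT-737 mouse was above every control, a pattern found in 6.14% of all genes, and 7.19% showed the opposite one. The means were 10.91 ± 0.20 in the ABT-737 mice and 10.33 ± 0.04 in the controls (SD, n = 3 each), a difference of 0.58 log2 or 1.49-fold (SE 0.13, 95% interval 1.21-fold to 1.85-fold). The unadjusted p by limma was 0.00268 and the adjusted p 0.283. The difference ran from 0.49 to 0.69 over 14 alternative settings, each with an unadjusted p under 0.05 by limma, and was 0.56 without control mouse 3, whose Y-linked signal was low. Several of these settings alter only the variance or the genes tested, and could not move the difference from 0.58. Granulocyte markers were higher with it, 10 of 12 by their means, at 0.77, 1.67 and 1.80 log2 above the control mean in ABT-737 mice 1, 2 and 3 and from -0.52 to 0.32 in the controls. Plasma cell markers, 4 of 5 with higher means, stood at 0.46, 0.39 and 1.11 in ABT-737 mice 1, 2 and 3 and from -0.22 to 0.15 in the controls. The part of either list in the result was not tested.

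Nfkbia encodes IkB alpha, the fast-turning inhibitor that carries p65 out of the nucleus and ends a response. It read 12.64, 11.96 and 12.48 in the ABT-737 mice, against 12.09, 12.03 and 11.45 in the controls. ABT-737 mice 1 and 3 were above every control, and ABT-737 mouse 2 lay between the controls. The difference was 0.50 log2 or 1.42-fold (SE 0.24, 95% interval 0.965-fold to 2.08-fold, adjusted p = 0.530 by limma). It was 0.30 without control mouse 3, which had the lowest value, and 0.70 without ABT-737 mouse 2.

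Tnfaip3 encodes A20, an enzyme that edits ubiquitin chains and shuts down signalling upstream of IKK. Its signal was 12.20, 11.40 and 11.68 in the ABT-737 mice, against 11.75, 11.72 and 11.27 in the controls, so that only ABT-737 mouse 1 exceeded the controls. The difference was 0.18 log2 (SE 0.23, adjusted p = 0.853 by limma) and 0.03 without control mouse 3. Tnip1 encodes ABIN1, an A20-binding protein that restrains the same step. It read 9.53, 9.08 and 8.95 in the ABT-737 mice, against 9.12, 8.86 and 8.88 in the controls, a difference of 0.23 log2 (SE 0.17, adjusted p = 0.730 by limma) that was 0.06 without ABT-737 mouse 1 and 0.35 without ABT-737 mouse 3.

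Nfkbie encodes IkB epsilon, a slower inhibitor that acts on p65 and c-Rel. It read 10.74, 10.04 and 9.92 in the ABT-737 mice, against 10.26, 9.99 and 10.39 in the controls. The highest and the lowest of the 6 values were both in ABT-737 mice. The difference was 0.02 log2 (SE 0.23, adjusted p = 0.989 by limma) and turned to -0.03 after quantile normalization and to -0.07 after centring.

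**Figure D2:**
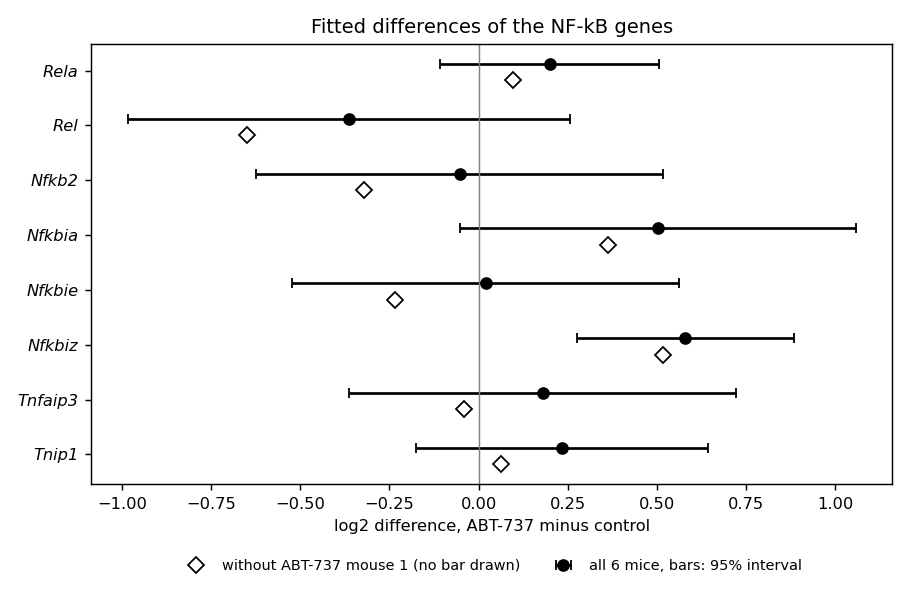
Fitted log2 differences, ABT-737 minus control (horizontal axis), for the 8 measured genes. Filled points with bars are the estimates over all 6 mice with 95% intervals from limma, and open diamonds are the estimates without ABT-737 mouse 1; the interval of Nfkbiz alone lies above 0, and Nfkbie and Tnfaip3 change sign when that mouse is left out.

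The members varied more among the ABT-737 mice than among the controls. The SD was larger in the ABT-737 mice for 8 of 8 members, against 8746 of 14860 genes, and the median SD of the members was 0.38 log2 in the ABT-737 mice and 0.20 in the controls, against 0.18 and 0.16 over all genes. For Nfkbia the SDs were nearly equal, at 0.356 in the ABT-737 mice and 0.353 in the controls. ABT-737 mouse 1 had the highest value of all 6 mice for each of the 8 members, whereas it was highest for 8.59% of all genes. After quantile normalization it was highest for 8 of 8 members and 9.65% of genes, and after centring for 6 of 8 and 5.92%. Relative to the control mean, the members in that mouse stood higher by 0.21 log2 for Rel to 0.78 for Nfkbia, with 0.70 for Nfkbiz and 0.62 for Tnfaip3. This pattern was noticed in the values and was not tested, and the members are known to be regulated together, so they are not separate observations of that mouse.

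The other ABT-737 mice divided the members. In ABT-737 mouse 3, Rel stood 0.83 log2 under the control mean and Nfkb2 0.44 under it, while Nfkbia and Nfkbiz stood 0.62 and 0.68 above it. ABT-737 mouse 3 held the lowest of all 6 values for 3 of 8 members (Rel, Nfkb2 and Nfkbie), against 14.3% of genes. Control mouse 3 was lowest for Rela, Nfkbia, Nfkbiz and Tnfaip3, and its share over all genes is not given here. Without ABT-737 mouse 1 the difference of Rel was -0.65 log2 (SE 0.18, unadjusted p = 0.00895 and adjusted p = 0.132 by limma) with groups that did not overlap, as in 28.1% of all genes in that fit. Leaving out any other mouse gave Rel differences from -0.49 to -0.13, the smallest without ABT-737 mouse 3 (unadjusted p = 0.612 by limma), and none of these had an unadjusted p under 0.05 by limma. Without ABT-737 mouse 1, 2 of 8 members had an unadjusted p under 0.05 by limma, Rel lower and Nfkbiz higher, against 4.48% of genes lower and 10.3% higher. B cell markers had lower means in the ABT-737 mice for 8 of 8 genes, and their mean relative to the controls was 0.02, -1.10 and -0.89 in ABT-737 mice 1, 2 and 3 and from -0.27 to 0.23 in the controls. Their part in the values of Rel, Nfkb2 and Nfkbie was not tested. T cell markers, 5 of 7 lower, stood at 0.05, -0.11 and -0.31 in ABT-737 mice 1, 2 and 3 and from -0.13 to 0.13 in the controls.

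**Figure D3:**
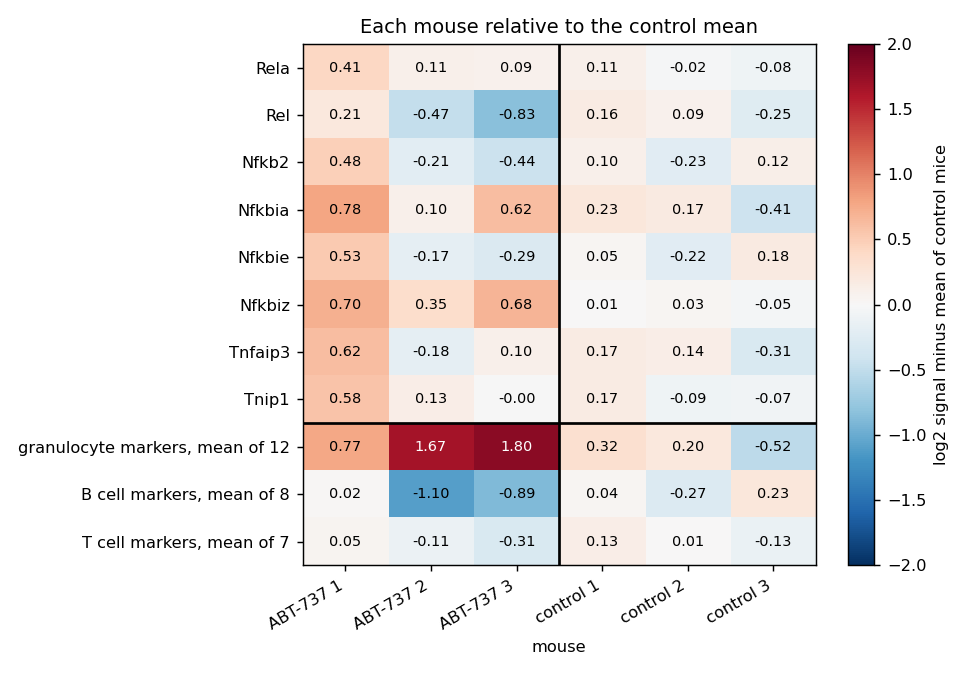
Log2 signal of each mouse minus the mean of the control mice (colour and printed value), with ABT-737 mice in the left columns and control mice in the right ones. Rows are the 8 measured genes and, under the line, the means of 3 marker lists. ABT-737 mouse 1 is positive for all 8 genes. ABT-737 mice 2 and 3 are negative for Rel, Nfkb2 and Nfkbie, and for both the B cell and the T cell markers.

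Among the 28 pairs of members, likeness was measured as the root-mean-square difference of their signals over the 6 mice, each centred on its own mean. Nfkb2 and Nfkbie were the most alike pair, at 0.060 log2, followed by Rela and Tnip1 at 0.086. Rel and Nfkbiz were the least alike, at 0.57. Of all genes, those nearest to Rel were Hivep2 at 0.101, Malt1 at 0.103 and Foxo1 at 0.131. Malt1, a paracaspase that carries antigen receptor signals to IKK, read 11.24, 10.62 and 10.39 in the ABT-737 mice, against 11.32, 11.15 and 11.08 in the controls. Those nearest to Nfkbia, the other member with a range over 1 log2 unit, were Ifrd1 at 0.0999, Fasl at 0.135 and Sertad1 at 0.146. These are descriptions over 6 mice, and a gene can lie near a member for any reason.

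The rest of the pathway was described with 7 lists, in which 93 of 106 genes were measured. As the lists were chosen with earlier results of these data known, their counts are not independent of those results. Of the 93, 25 had an unadjusted p under 0.05 by limma and were higher, and 3 were lower, against the 5.75% and 4.45% of all genes given above, while 0 had an adjusted p under 0.05. All ABT-737 mice lay above all controls for 18 of the 93 and below for 3, against 6.14% and 7.19% of all genes. ABT-737 mouse 1 was the highest for 14 of the 93, against 8.59% of all genes. Markers of monocytes and macrophages, 6 of 8 with higher means, stood at 0.10, 0.87 and 0.38 log2 relative to the control mean in ABT-737 mice 1, 2 and 3 and from -0.21 to 0.35 in the controls. Their part, and that of the granulocyte markers, in the ligand, receptor, adaptor and target values was not tested, and Cd14 and Vcam1 stand in a pathway list and in the monocyte list.

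Ligands and receptors held several of the higher genes. Tnf, which encodes the cytokine that gives the TNF pathway its name, read 11.61, 10.40 and 11.29 in the ABT-737 mice, against 10.45, 10.26 and 9.50 in the controls, a difference of 1.03 log2 (SE 0.36, adjusted p = 0.408 by limma). Il1b, the gene of interleukin-1 beta, read 12.03, 12.58 and 10.70 in the ABT-737 mice, against 10.14, 10.70 and 10.51 in the controls. Their groups overlapped or touched, with ABT-737 mouse 2 lowest for Tnf and ABT-737 mouse 3 lowest for Il1b among the treated animals. Of 10 ligands, 3 were higher at an unadjusted p under 0.05 by limma, these and Tnfsf14, at 0.70, and 0 were lower. Over all genes the shares, for ligands and receptors alike, were 5.75% higher and 4.45% lower. Of 14 receptors, 5 were higher, including Cd14, a co-receptor for lipopolysaccharide, at 1.26, the interleukin-1 receptor partner Il1rap at 0.82 and Ly96, which encodes the TLR4 partner MD-2, at 0.58. The lower one, picked out after its values were seen, was Il1r1 at -1.23.

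Between receptor and IkB lie the adaptors and kinases. For each list here, the shares over all genes at an unadjusted p under 0.05 by limma were 5.75% higher and 4.45% lower. Of 14 adaptors and ubiquitin ligases, 2 were higher at that threshold and 0 were lower. These were Tirap at 0.97 and Myd88 at 0.55, the adaptors that link Toll-like receptors to the kinases downstream, and Card9, an adaptor of C-type lectin receptors, stood at 0.59. Of 10 genes listed for the IKK complex and upstream kinases, 2 were higher, Map3k8 at 0.47 and Map3k3 at 0.32. In the same list Tab1 stood at 0.36. Of 13 other negative regulators, 2 were higher, Pdlim2, a ubiquitin ligase for p65, at 0.44 and Tollip at 0.33, with Rnf11 at 0.50. The 5 genes listed as other IkB proteins showed no such call, with Bcl3 at 0.11, Nfkbid at 0.18 and Nfkbil1 at 0.06. The list also held Nfkbib at 0.04 and Ankrd42 at 0.01. ABT-737 mouse 1 was the highest for 2 of these 5 genes, among them Nfkbid, which encodes the nuclear protein IkB NS. Nfkbid read 10.96, 10.03 and 10.16 in the ABT-737 mice, against 10.22, 10.19 and 10.21 in the controls.

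Target genes outside the feedback loop had the widest spread. Of 27 measured, 11 were higher at an unadjusted p under 0.05 by limma and 2 were lower, against 5.75% and 4.45% of all genes. Their median difference was 0.16. Cxcl2, a neutrophil-attracting chemokine, read 12.80, 12.19 and 12.96 in the ABT-737 mice, against 10.69, 10.90 and 9.44 in the controls. Every ABT-737 mouse exceeded every control, and the difference was 2.31 log2 (SE 0.39, adjusted p = 0.241 by limma). Ptgs2, which encodes the inducible prostaglandin synthase COX-2, was higher by 1.82 (SE 0.32) and Ier3, an early response gene, by 1.29 (SE 0.23), each with an adjusted p of 0.241 by limma. The 2 lower targets, named after their values were seen, were Cd83, an activation marker of B and dendritic cells, at -1.19 and Il6 at -0.64. Il6 read 4.48, 3.97 and 3.77 in the ABT-737 mice, against 5.15, 4.78 and 4.22 in the controls. Its groups overlapped (unadjusted p = 0.0496 by limma), and every value lay under the array medians, which ran from 6.86 to 7.14. Other textbook targets stood close to 0, among them Icam1 at -0.17, Birc3 at -0.12 and Sod2 at 0.14, chosen after their values were seen.

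**Figure D4:**
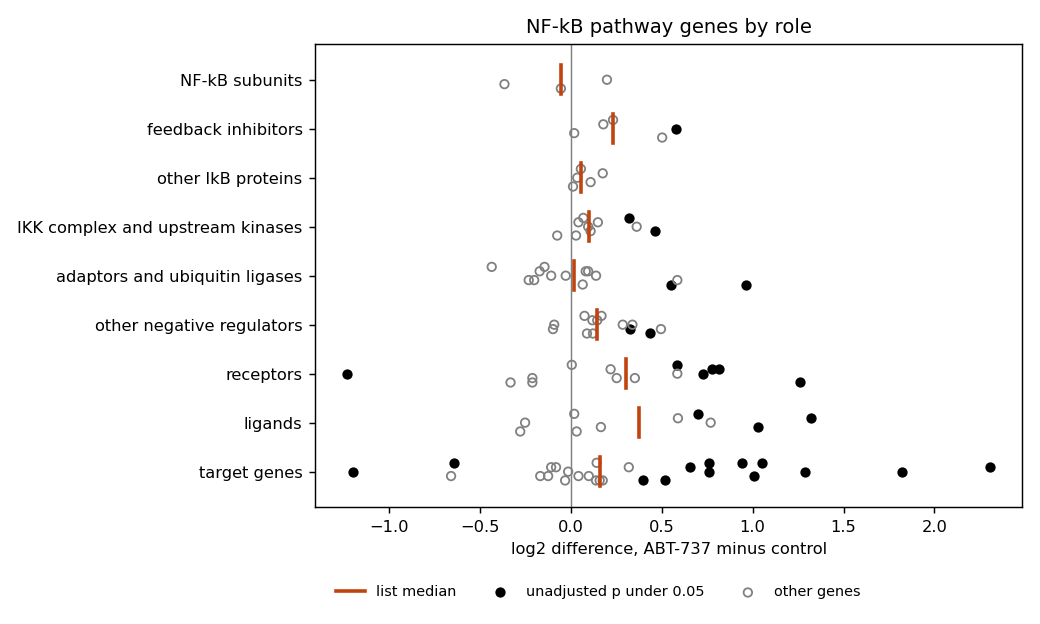
Log2 difference, ABT-737 minus control (horizontal axis), of every measured gene in 9 role groups of the NF-kB pathway. Each circle is a gene, filled where its unadjusted p by limma was under 0.05, vertical offsets only separate circles, and the bars are group medians, which run from -0.05 for the subunits to 0.38 for the ligands.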

How the data were processed

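Array signals came from 1 Affymetrix exon array per mouse, in the table the authors deposited, on a log2 scale as read from the values (2.6 to 14.3). Per the submitters' processing notes the genome build was mm9; background correction, normalization, summarisation and filters are not given in the sources used here, and their effect on small differences is unknown. Of 23332 rows, 14996 had 1 symbol in the platform annotation, 1019 several and 7317 none; for genes with more than 1 row, 135 in all, the row with the highest mean was kept.

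Groups followed the treatment labels, and mice were numbered in accession order, which pairs none. Differences, ABT-737 minus control, were fitted over all 14860 genes by lmFit and eBayes of limma 3.58.1 under R 4.3.3, with two-sided p-values and Benjamini-Hochberg adjustment over all genes. The fit was tested on simulated data. The number of arrays limits the precision. Named genes were all members, the 3 genes of each pathway list with the smallest p, and for members with a range over 1 log2 unit the 3 genes nearest in profile; others are marked in the text. The members and lists were chosen with earlier results of these data known. Promoter windows came from RefSeq (GRCm38.p6) and were not set against array coordinates. Plots were made in Python 3.11.15 using matplotlib 3.10.9.

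Alternatives were quantile normalization, centring of arrays, leaving out the dimmest 30% of genes, a trended or a robust variance, weights per array, averaging of a gene's rows, testing all table rows, and leaving out each mouse.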

Additional observations from a re-analysis of the deposited data

How the results depend on the processing

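No paired analysis was possible because the labels pair no mice and the mouse numbers follow accession order. Of the 8 members, Rel, Rela, Nfkbia, Nfkbiz and Tnip1 kept their direction under all 14 alternatives, with differences from -0.65 to -0.13, 0.10 to 0.26, 0.30 to 0.70, 0.49 to 0.69 and 0.06 to 0.35 in that order. Leaving out dim genes, a trended or robust variance, averaging of rows and testing all rows could not change a member's difference. Each member had 1 row and passed the dim filter, so its direction could change only under the other alternatives. Nfkbiz stayed at an unadjusted p under 0.05 by limma in each of them, from 0.000909 to 0.0153, with adjusted p from 0.137 to 0.674. Nfkbie turned to -0.0319 under quantile normalization, -0.0667 under centring and -0.0785 with array weights, and ran from -0.23 to 0.18 when single mice were left out. Nfkb2 ran from -0.32 to 0.14 and Tnfaip3 from -0.04 to 0.36 on leaving out single mice. Members at an unadjusted p under 0.05 by limma numbered 2 with array weights (Nfkbia and Nfkbiz) and 1 to 2 without single mice: Rel joined without ABT-737 mouse 1 and Nfkbia without ABT-737 mouse 2. Of all genes, 12.2% were past that threshold with array weights, 14.7% without ABT-737 mouse 1 and 9.64% without ABT-737 mouse 2, against 10.2% with all mice. Members whose groups did not overlap numbered 1 to 3, the 3 being Nfkbiz, Rela and Tnip1 without control mouse 1, where 21.7% of all genes did not overlap (20.7% to 28.1% without single mice, 13.3% with all). The median member difference ran from 0.01 without ABT-737 mouse 1 to 0.27 without ABT-737 mouse 2. Over all genes, adjusted calls by limma numbered 14 without the dimmest 30% of genes (fewer genes tested), 2 with array weights and 0 to 510 without single mice, 510 being without ABT-737 mouse 1 and 1 without ABT-737 mouse 3. No member was among them. The causes of these shifts were not tested. The share of all genes at an unadjusted p under 0.05 by limma ran from 7.34% to 14.7% over the alternatives. Counts in the pathway lists ran from 2 to 9 for receptors, 1 to 5 for ligands and 1 to 4 for adaptors. They ran from 0 to 3 for the IKK complex and upstream kinases, 0 to 4 for other negative regulators and 8 to 13 for targets.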
